A study of Homo sapiens with 12 samples.

Results

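SGK1 and SGK3 encode serum and glucocorticoid-regulated kinases, and their RNA was followed in all 12 libraries of a study of Ishikawa cells, a human endometrial adenocarcinoma line. These 2 genes, of the 45320 in the count files, were chosen on measured values of the comparisons described here, so their own levels and fold changes are given as a description without a test. One arm of cells expressed a non-targeting short hairpin RNA (shNC) and the other one directed at ARID1A (shARID1A), whose protein anchors SWI/SNF chromatin remodellers to DNA. Both arms had been kept for at least 4 days in phenol red-free medium with charcoal-treated serum, which is depleted of steroids. Each arm was given vehicle (DMSO), 10 nM 17-beta-estradiol (E2), or 10 nM E2 together with 100 nM fulvestrant, an estrogen receptor antagonist and degrader, for 8 h. Each of the 6 groups held 2 libraries. The number of hairpins and lines behind an arm is not given in the sources used here, so ARID1A loss and any other difference between the lines cannot be told apart. Separate cultures are not stated for the paired libraries either, so p-values measure the spread between libraries, which may be technical.

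SGK kinases belong to the AGC family, as do AKT and S6 kinase. SGK1 is known as a rapidly induced gene whose transcription responds to glucocorticoids, mineralocorticoids, serum and cell shrinkage, and in the endometrium it is known for control of epithelial sodium channels and of the survival of decidual cells. The kinase becomes active when mTORC2 and then PDK1 phosphorylate it downstream of phosphoinositide 3-kinase, and its substrates include the stress protein NDRG1 and the ubiquitin ligase NEDD4L. SGK3 carries a phox homology (PX) domain that binds phosphatidylinositol 3-phosphate and places the kinase on endosomes. SGK3 has been described in breast cancer cells as an estrogen-responsive gene.

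In the hg19 annotation of the files, SGK1 lay on chromosome 6 from 134490386 to 134639049 on the minus strand, with 9083 bases of merged exon. The level of a gene pools all of its start sites. RefSeq lists 3 start sites for SGK1 on GRCh38.p14, another build than that of the counts, and the 250 bases before the third are shown because they are the GC-rich promoter window among them. The window is chr6:134174867-134175116 on the minus strand, read 5′ to 3′, with GC boxes (GGGCGG on either strand) and the TATA box core (TATAA on either strand) in capitals.
SGK1 start 3: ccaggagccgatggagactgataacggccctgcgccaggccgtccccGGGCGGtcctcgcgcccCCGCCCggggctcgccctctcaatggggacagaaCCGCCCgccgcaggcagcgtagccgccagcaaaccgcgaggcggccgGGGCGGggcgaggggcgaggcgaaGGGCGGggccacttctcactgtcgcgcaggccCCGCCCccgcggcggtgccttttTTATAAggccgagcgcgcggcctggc
This window was 76% G and C, against 33.6% and 41.6% for the windows of the other SGK1 starts and a median of 58.0% over 35116 RefSeq promoter windows of the same length. It held 6 GC boxes, a motif present in 42.6% of all windows, and none lay in the other SGK1 windows. The TATA core matched 2 times, once on each strand and overlapping, and 18.9% of windows held such a match. It also matched 2 times in the window of start 1 and 1 time in that of start 2. No window of SGK1 held the palindromic glucocorticoid element (AGAACA and TGTTCT with NNN between, in 0.00285% of windows), the palindromic estrogen element (GGTCA and TGACC with NNN between, 0.0399%), the AP-1 letters TGANTCA (6.57%), the cAMP element TGACGTCA (1.65%) or the forkhead core TGTTTAC (2.98%). Both strands were searched, and no match says only that these letters are not in the window.

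Library totals ran from 28810351 to 38657162 counts, and 20959 to 22076 genes had a count. Levels are given as CPM, a gene's counts relative to the library total, on totals scaled by TMM factors, which were 1.012 to 1.034 in shNC and 0.957 to 0.992 in shARID1A. ARID1A, the targeted gene, stood at 117.6 ± 5.04 CPM in shNC and 57.4 ± 2.63 CPM in shARID1A (SD, n = 6 libraries each), a log2 fold change of -1.03 (SE 0.04; edgeR quasi-likelihood adjusted p = 3.02e-19). Keratins KRT8 (342.5 to 618.6 CPM) and KRT18 (193.3 to 320.3 CPM) were abundant, while the epithelial markers CDH1 (at most 0.658 CPM) and EPCAM (at most 1.97 CPM) were nearly absent. ESR1, the estrogen receptor through which E2 and fulvestrant are known to act, was close to the detection limit, with 2 to 34 counts and no more than 1.09 CPM in any library. ESR2 had 0 to 9 counts and the progesterone receptor gene PGR had 0 in all 12 libraries.

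SGK1 was higher in every shARID1A library than in every shNC library, and within each arm it stayed within narrow limits whatever the treatment. In shNC cells the libraries read 152.1 and 166.2 CPM in DMSO, 156.7 and 159.4 CPM in E2, and 159.4 and 154.8 CPM in E2 plus fulvestrant. In shARID1A cells they read 211.0 and 212.7 CPM in DMSO, 199.9 and 201.5 CPM in E2, and 203.3 and 214.8 CPM in E2 plus fulvestrant. The arms did not overlap, with a gap between the highest shNC library at 166.2 CPM and the lowest shARID1A library at 199.9 CPM. Of all 17020 tested genes 43.1% differed between the arms at an adjusted p under 0.05, 20.3% higher and 22.8% lower in shARID1A. That is a different measure from overlap. The share of tested genes whose arms do not overlap is not given here, for SGK1 or for the genes named below. The arm means were 158.1 ± 4.85 CPM and 207.2 ± 6.37 CPM (SD, n = 6 each).

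**Figure D1:**
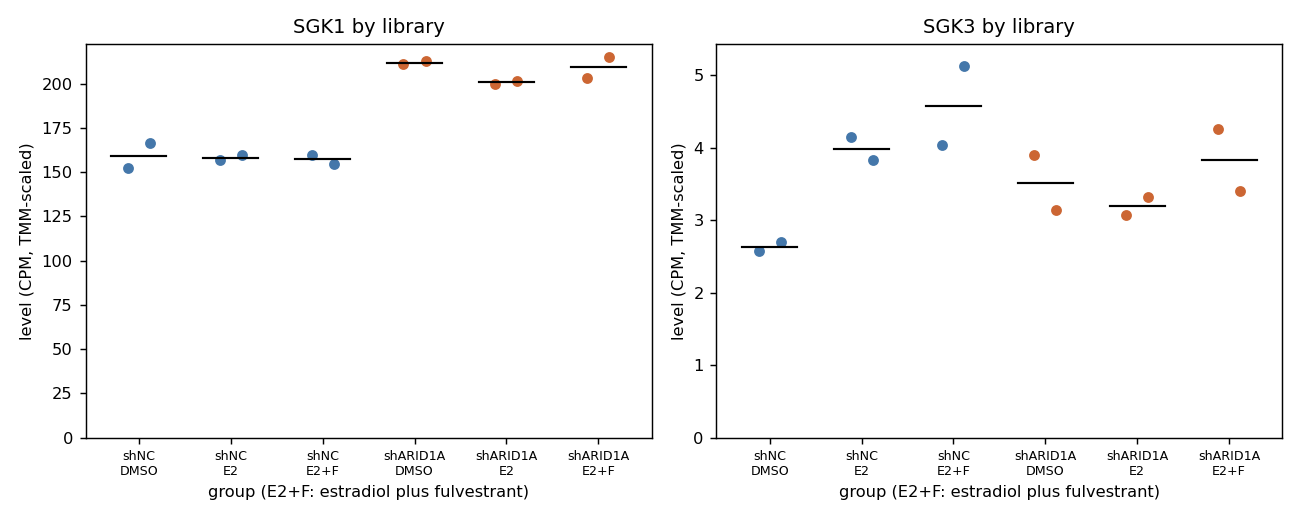
Level of SGK1 (left) and SGK3 (right) in CPM, on axes that start at 0, for each library (points, blue for shNC and orange for shARID1A) with the mean of the 2 libraries of a group (line). SGK1 separates by arm, from 152.1 to 166.2 CPM in shNC and from 199.9 to 214.8 CPM in shARID1A, while SGK3 is lowest in shNC with DMSO at 2.58 and 2.70 CPM.

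The SGK1 difference between arms, averaged over the 3 treatments, was 0.39 on the log2 scale (SE 0.03), a 1.31-fold higher level. It was 0.41 in DMSO (SE 0.06), 0.34 in E2 (SE 0.06) and 0.41 in E2 plus fulvestrant (SE 0.06). In 26.6% of tested genes the averaged difference between arms was larger in size than that of SGK1. On plain library totals, without TMM factors, the ratio of the arm means was smaller, at 0.32 on the log2 scale, with libraries at 153.8 to 171.1 CPM in shNC and 192.8 to 212.9 CPM in shARID1A. The arms did not overlap on that scale either. SGK1 had 4830 to 7453 counts per library, so counting error was small, and its SD within groups was 0.05 on the log2 scale against a median of 0.15 over all tested genes.

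Within the arms, SGK1 differed little between treatments. Averaged over both arms, the log2 difference was -0.04 for E2 against DMSO (SE 0.04), 0.03 for E2 plus fulvestrant against E2 (SE 0.04) and -0.02 for E2 plus fulvestrant against DMSO (SE 0.04). The order of the group means was shARID1A DMSO (211.8 ± 1.22 CPM, SD, n = 2), shARID1A E2 plus fulvestrant (209.1 ± 8.08), shARID1A E2 (200.7 ± 1.12), shNC DMSO (159.1 ± 9.96), shNC E2 (158.1 ± 1.94) and shNC E2 plus fulvestrant (157.1 ± 3.25). Neighbours in this order overlapped, except across the arms and between shARID1A E2 and the other shARID1A groups. In shARID1A cells both E2 libraries lay under both DMSO libraries, a difference of -0.08 on the log2 scale (SE 0.06). Comparisons against the same DMSO or E2 libraries share those libraries and are not independent of each other.

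SGK3 was expressed far lower, and its lowest group was the control arm in DMSO. The gene lay on chromosome 8 from 67624969 to 67759490 on the plus strand (hg19), with 2728 bases of merged exon. In shNC cells the libraries read 2.58 and 2.70 CPM in DMSO (85 and 80 counts), 4.15 and 3.83 CPM in E2 (130 and 132 counts), and 4.04 and 5.13 CPM in E2 plus fulvestrant (129 and 160 counts). In shARID1A cells they read 3.90 and 3.14 CPM in DMSO (118 and 93 counts), 3.07 and 3.33 CPM in E2 (96 and 123 counts), and 4.25 and 3.41 CPM in E2 plus fulvestrant (124 and 101 counts). Both shNC DMSO libraries lay under all 10 others. At this depth the exact 95% Poisson interval was 63.4 to 99.6 counts for the library with 80 counts and 136 to 187 counts for the library with 160, and these intervals cover counting error only.

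Over the 3 treatments the SGK3 difference between arms averaged -0.05 on the log2 scale (SE 0.13), but its sign was not the same in all of them. In DMSO it was 0.42 (SE 0.25), with both shARID1A libraries above both shNC libraries. In E2 it was -0.31 (SE 0.22), with both shARID1A libraries below both shNC libraries. In E2 plus fulvestrant it was -0.26 (SE 0.22), and the groups overlapped, with -0.07 when the second shNC library of that treatment was left out. The background share of all tested genes that differed between arms at an adjusted p under 0.05 was 19.2% in DMSO, 27.2% in E2 and 24.2% in E2 plus fulvestrant. It is not the share whose libraries separate by order, which is not given here.

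By treatment, SGK3 in shNC cells was 0.59 higher in E2 than in DMSO on the log2 scale (SE 0.24), or 1.51-fold. It was 0.80 higher in E2 plus fulvestrant than in DMSO (SE 0.24), or 1.74-fold, and in shNC both libraries with E2 plus fulvestrant lay above both DMSO libraries. Between E2 plus fulvestrant and E2 the difference in shNC was 0.20 (SE 0.21). In shARID1A cells the same 3 differences were -0.13 (SE 0.24), 0.12 (SE 0.24) and 0.26 (SE 0.23), each about as large as its error or smaller. The E2 effect in shARID1A minus that in shNC was -0.73 (SE 0.34), and for E2 plus fulvestrant against DMSO it was -0.68 (SE 0.33). Both of these differences, and those against DMSO within shNC, share the same 2 shNC DMSO libraries. Without the second shNC library in E2 plus fulvestrant, at 5.13 CPM, the shNC differences were 0.62 against DMSO and 0.02 against E2. Leaving out the first shARID1A DMSO library turned the E2 difference in shARID1A to 0.03, and leaving out the first shARID1A library in E2 plus fulvestrant turned its difference against DMSO to -0.05.

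**Figure D2:**
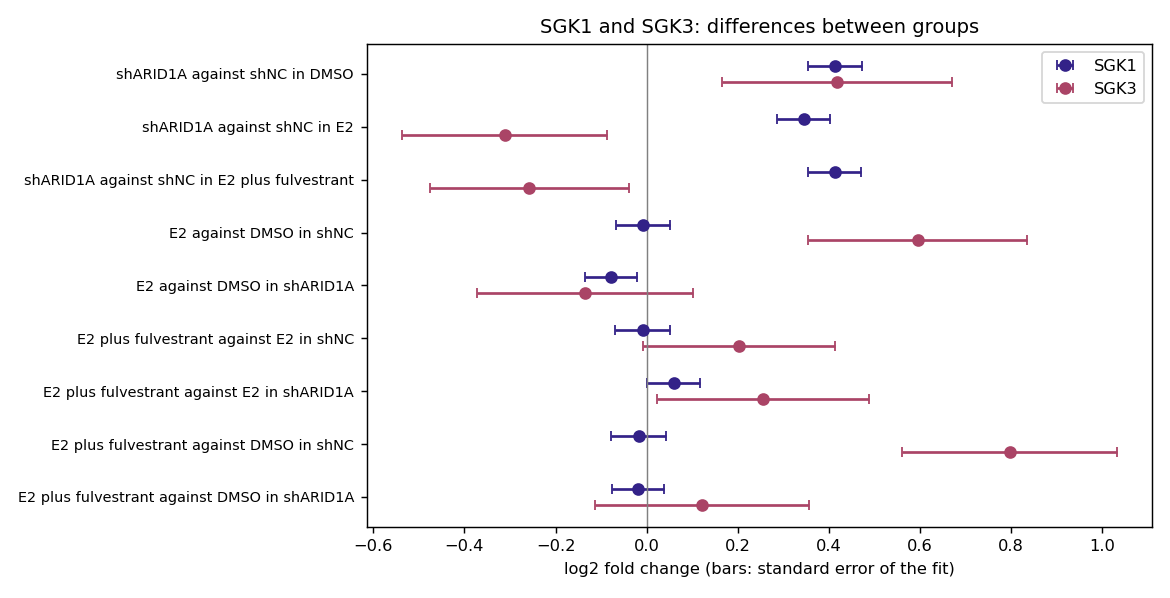
Log2 fold change (point) and standard error of the fit (bar) of SGK1 and SGK3 for each difference between 2 groups. SGK1 lies between 0.34 and 0.41 in the 3 comparisons between arms and near 0 in all comparisons between treatments. SGK3 takes both signs over the 3 comparisons between arms and is highest, at 0.80, for E2 plus fulvestrant against DMSO in shNC.

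The group means of SGK3 ran from 4.58 ± 0.77 CPM (SD, n = 2) in shNC E2 plus fulvestrant through 3.99 ± 0.23 in shNC E2, 3.83 ± 0.60 in shARID1A E2 plus fulvestrant, 3.52 ± 0.54 in shARID1A DMSO and 3.20 ± 0.18 in shARID1A E2 to 2.64 ± 0.08 in shNC DMSO. Each neighbouring pair overlapped except the last. Averaged over both arms the treatment differences were 0.23 for E2 against DMSO (SE 0.17), 0.23 for E2 plus fulvestrant against E2 (SE 0.16) and 0.46 for E2 plus fulvestrant against DMSO (SE 0.17). Its SD within groups was 0.17 on the log2 scale. The annotation also holds a readthrough gene, C8orf44-SGK3, which shares 217 exon bases with SGK3, or 7.96% of SGK3 and 34.6% of the readthrough gene. It had 0 counts in all 12 libraries, and under the counting options in the file headers a read that falls on both genes is assigned to neither. The exons of SGK1 overlapped no other gene.

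Per kilobase of exon, SGK1 averaged 20.1 CPM, above 79.9% of the tested genes, and SGK3 averaged 1.33 CPM, above 31.3% of them. The level of SGK1 per kilobase was 15.1 times that of SGK3. These values divide by merged exon, 9083 bases for SGK1 and 2728 for SGK3. Merged exon pools all start sites and may be longer than any single RNA, so the ratio and ranks depend on it. SGK2, the remaining member of the kinase family, had 2 to 21 counts per library and 0.119 CPM per kilobase. Its difference between arms was -0.57 on the log2 scale (SE 0.45) and did not pass the edgeR test (adjusted p = 0.331). Across the 12 libraries the log2 levels of SGK1 and SGK3 had a Pearson r of -0.13, a description of libraries that share arms and treatments.

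The receptors that SGK1 transcription is known to respond to were lower in shARID1A. NR3C1, the glucocorticoid receptor, read 60.8 to 72.5 CPM in shNC and 48.4 to 65.0 CPM in shARID1A, and it fell by 0.29 on the log2 scale (SE 0.05; edgeR adjusted p = 1.18e-05). The second shARID1A library with E2 plus fulvestrant, at 65.0 CPM, lay among the shNC libraries, and the other shARID1A libraries read at most 55.2 CPM. In DMSO alone the NR3C1 difference was -0.23 and did not pass (edgeR adjusted p = 0.0569). NR3C2, the mineralocorticoid receptor, was scarce, at 2.17 ± 0.44 CPM in shNC and 1.15 ± 0.42 CPM in shARID1A (SD, n = 6 each), and fell by 0.92 (SE 0.22; adjusted p = 0.000772). Its arms touched, with the lowest shNC library at 1.754 CPM and the highest shARID1A library at 1.757 CPM. Within single treatments NR3C2 passed in DMSO only, with edgeR adjusted p = 0.191 in E2 and 0.184 in E2 plus fulvestrant. HSD11B2, which inactivates cortisol, fell by 0.53 (SE 0.19; adjusted p = 0.0207), and this call was lost when any of 4 libraries was left out, with adjusted p from 0.0604 to 0.118. Of 11 tested genes in the list of steroid receptors and cortisol enzymes, 1 rose (the receptor cochaperone FKBP4, by 0.11) and 4 fell, or 45.5% against 43.1% of all genes, with a median log2 difference of -0.11 against -0.02 over all genes. ESR1, also in that list, had a difference of -0.46 (SE 0.37; adjusted p = 0.343).

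Genes known to be induced by glucocorticoids moved in both directions in shARID1A. Of 22 tested, KLF15 and LCN2 passed the filter on low counts through the libraries of 1 arm only, which selects for a difference. Of the other 20 members, 9 rose and 9 fell, or 90% against 43.1% of all tested genes and 57.7% of the 10338 genes averaging 5 CPM or more, with a median log2 difference of 0.01. RGS2, a regulator of G protein signalling, rose from 23.1 ± 2.73 to 54.8 ± 6.02 CPM (SD, n = 6 each; log2 fold change 1.24, SE 0.06; edgeR adjusted p = 8.35e-17). TSC22D3, the glucocorticoid-induced leucine zipper, rose from 68.2 ± 3.46 to 95.7 ± 4.09 CPM (0.49, SE 0.04; adjusted p = 3.32e-11). GLUL, glutamine synthetase, rose by 0.32 and ERRFI1, a feedback inhibitor of the EGF receptor, by 0.28. KLF15, a transcription factor, had 0 counts in all 6 shNC libraries and 1 to 21 counts in shARID1A, and is described without a test. Its mean in shARID1A was at least 3.55-fold higher against a floor of 3 counts per shNC library. The first shARID1A library in E2 plus fulvestrant, at 0.034 CPM, lay under that floor. On the other side, FKBP5, a receptor cochaperone and standard glucocorticoid target, fell from 40.7 ± 1.83 to 33.3 ± 2.08 CPM (-0.29, SE 0.05; adjusted p = 1.77e-05). BCL6, a transcriptional repressor, fell by 0.64, the thiamine transporter SLC19A2 by 0.41, the metallothionein MT2A by 0.34 and the mTORC1 inhibitor DDIT4 by 0.25. Over all 22 the number that rose was 10, and 6 without the second shARID1A library in E2. The lists below are set beside 43.1%, while 57.7% is the closer background for their members averaging 5 CPM or more. All lists, here, above and below, were chosen with earlier results of these data known. A share above the background therefore describes the chosen members, and enrichment was not tested.

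Among the genes that activate SGK kinases, subunits of mTORC2 differed in direction. RICTOR, which defines mTORC2, read 38.7 to 51.6 CPM in shNC and 24.4 to 33.3 CPM in shARID1A, with no overlap, and fell by 0.61 on the log2 scale (SE 0.06; edgeR adjusted p = 3.67e-10). MAPKAP1, the SIN1 subunit that binds SGK1, rose from 165.8 ± 6.05 to 213.3 ± 6.25 CPM (0.36, SE 0.03; adjusted p = 2.5e-10). The subunits PRR5L and MLST8 rose by 0.45 and 0.22. PDPK1, which encodes PDK1, had a difference of -0.11 (SE 0.07; adjusted p = 0.173). Upstream of these, the class II kinase PIK3C2B rose by 0.77. The insulin receptor adaptor IRS1 fell by 1.09, the regulatory subunits PIK3R1 and PIK3R3 by 1.15 and 0.40, and PIK3C2A by 0.35. PIK3R1 was scarce, averaging 1.27 CPM in shNC and 0.57 CPM in shARID1A, and its arms overlapped. IRS1 read at most 4.85 CPM. Its difference was -1.745 in E2 but -0.46 in DMSO, where it did not pass (edgeR adjusted p = 0.268). Of the 28 tested genes in the list, 6 rose and 6 fell, or 42.9% against the background of 43.1%, with a median of -0.01.

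Genes encoding substrates and targets of SGK kinases also moved both ways. NDRG1, whose protein is the standard reporter of SGK1 activity when phosphorylated, had the smallest adjusted p of the list. Its libraries read 345.2 to 493.1 CPM in shNC and 666.9 to 854.8 CPM in shARID1A, with no overlap. It rose by 0.85 on the log2 scale (SE 0.05; edgeR adjusted p = 3.2e-16), which is an RNA level and no measure of phosphorylation. NEDD4L, the ubiquitin ligase that removes sodium channels and is inhibited by SGK1, read 36.3 to 42.4 CPM in shNC and 22.6 to 30.9 CPM in shARID1A, and fell by 0.56 (SE 0.05; adjusted p = 3.44e-10). Its paralog NEDD4 fell from 29.3 ± 1.94 to 21.5 ± 1.40 CPM (-0.45, SE 0.06; adjusted p = 2.74e-07). The calcium entry genes STIM1 and ORAI1 rose by 0.45 and 0.20, and the substrate FLII and the kinase GSK3A by 0.25 and 0.17. The creatine transporter SLC6A8 fell by 0.35, the sodium pump subunit ATP1B1 by 0.27 and the p53 ligase MDM2 by 0.27. FOXO3, a transcription factor kept out of the nucleus by SGK and AKT, had a difference of -0.15 (SE 0.08; adjusted p = 0.14). Of 35 tested members, SLC12A3 passed the count filter through 1 arm only, and of the other 34 members 8 rose and 11 fell, or 55.9% against 43.1%, with a median of -0.05. The 55.9% is under the share given above for genes averaging 5 CPM or more. The number that rose was 5 without the second shNC library in E2 or without the second shARID1A library in DMSO.

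**Figure D3:**
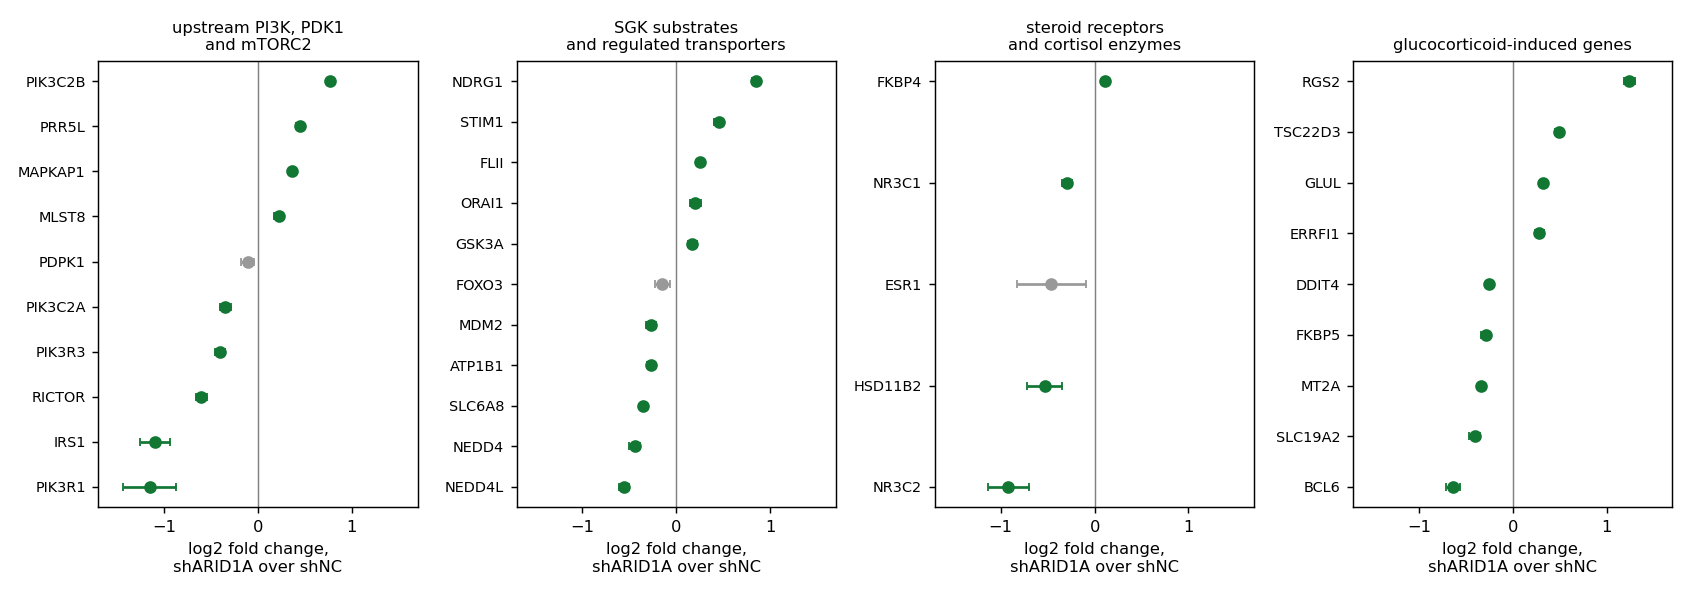
Log2 fold change of shARID1A over shNC, averaged over the 3 treatments, for selected members of 4 gene lists (points, with the standard error of the fit as bars, green where the edgeR adjusted p was under 0.05 and grey otherwise). Each list holds members on both sides of 0, such as NDRG1 at 0.85 and NEDD4L at -0.56, and KLF15 is left out because its shNC libraries had 0 counts.

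Related kinases and endosomal genes were taken as further lists. Of 22 tested AGC kinases, 4 rose and 7 fell, or 50% against 43.1%, with a median of -0.07. LATS2, a kinase of the Hippo pathway, rose from 3.50 ± 0.39 to 5.69 ± 0.64 CPM (SD, n = 6 each; log2 fold change 0.71, SE 0.12; edgeR adjusted p = 1.37e-05). The ribosomal S6 kinase RPS6KA3 fell by 0.49, the protein kinase N gene PKN2 by 0.34 and the NDR kinase STK38L by 0.44. A list of endosomal phosphoinositide and PX domain genes, around the compartment of SGK3, also held CXCR4 and the RAB5 genes. Of its 21 tested members, 6 rose and 8 fell, or 66.7% against 43.1%, with a median of -0.05. EEA1, an early endosome tether, fell from 12.3 ± 0.97 to 7.18 ± 0.81 CPM (-0.77, SE 0.09; adjusted p = 1.65e-08). The sorting nexin SNX5 fell by 0.46 while SNX3 rose by 0.26, and the chemokine receptor CXCR4, whose endosomal sorting SGK3 is known to affect, rose by 0.35.

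Lists tied to cell volume and to the endometrium gave the remaining context. Of 14 tested genes of the osmotic and cell volume response, 3 rose and 8 fell, or 78.6% against 43.1% of all tested genes, with a median of -0.14. S100A4, a calcium-binding protein, rose by 0.69 and the water and glycerol channel AQP3 by 0.43. The amino acid transporter SLC38A1 fell by 0.35 and NFAT5, the transcription factor of the osmotic response, by 0.21. The number that fell was 5 without any one of 5 libraries, namely the first library of shNC DMSO, shNC E2, shNC E2 plus fulvestrant or shARID1A DMSO, or the second of shARID1A E2 plus fulvestrant. Of 7 tested genes of secretory or decidual endometrium, 1 rose and 4 fell, or 71.4% against the same 43.1%, with a median of -0.15. IGFBP1, a decidual insulin-like growth factor binding protein, fell from 42.8 ± 2.86 to 19.1 ± 2.99 CPM (SD, n = 6 each; log2 fold change -1.16, SE 0.07; edgeR adjusted p = 1.44e-14). The secreted ligand WNT5A fell by 0.69 and the homeobox factor HOXA10 by 0.44, and IGFBP3 rose by 0.27.

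**Figure D4:**
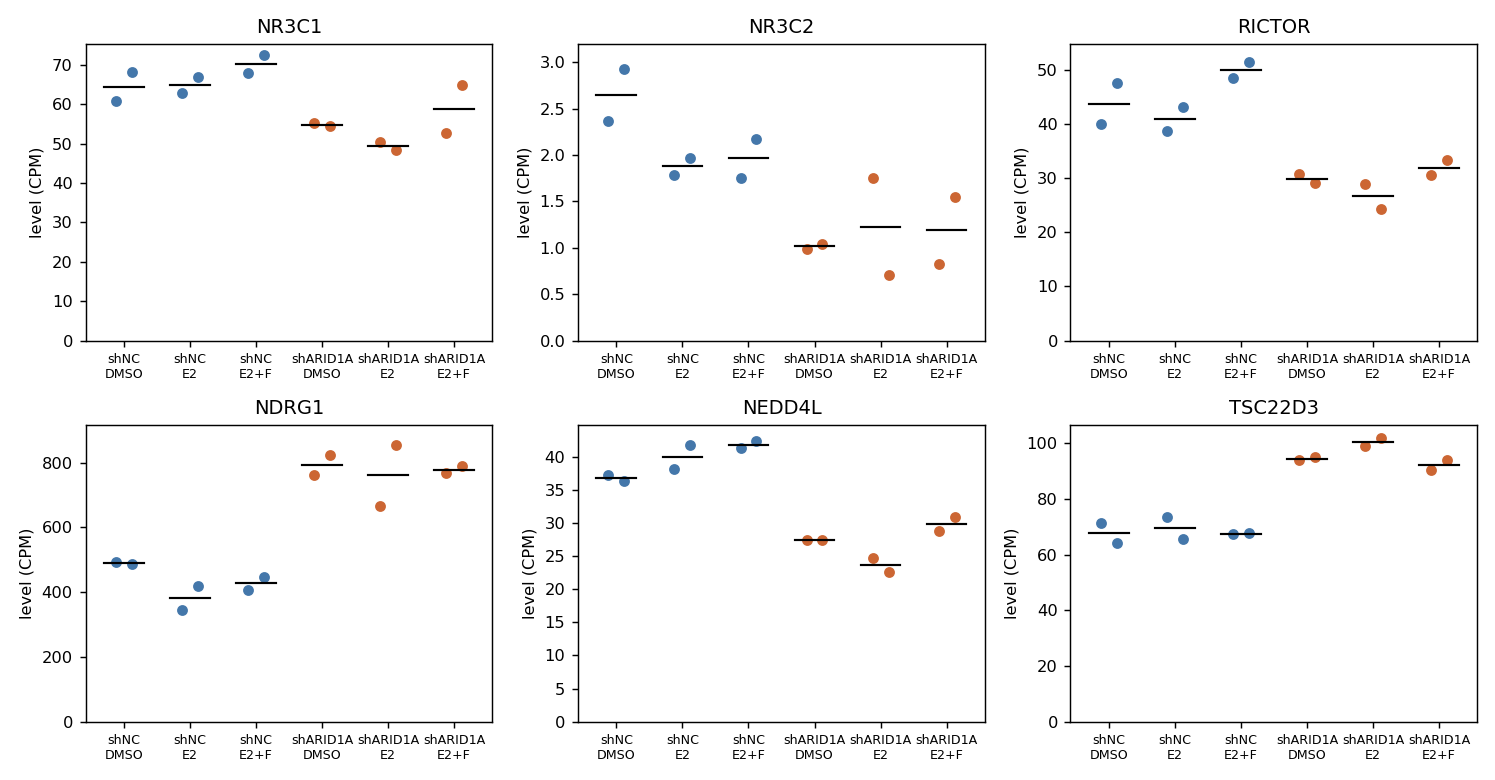
Level in CPM of 6 genes around SGK1 in each library (points, blue for shNC and orange for shARID1A) with the mean of each group (line), on axes that start at 0. NR3C1, NR3C2, RICTOR and NEDD4L are lower in shARID1A and NDRG1 and TSC22D3 are higher, with overlap of the arms in NR3C1 and NR3C2.

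Markers of cell types also differed between the arms. The summed level of 7 epithelial markers was 946 to 1042 CPM in shNC and 603 to 657 CPM in shARID1A, and 4 of 5 tested members fell, against 22.8% of all tested genes, among them KRT8 by 0.75 and KRT18 by 0.54. The sum of 7 stromal markers was 32.24 to 43.96 CPM in shNC and 50.1 to 53.3 CPM in shARID1A, carried by COL1A1, which rose by 0.60, while PDGFRB fell by 0.55. DCN averaged 1.17 CPM in shNC and 0.175 CPM in shARID1A, and since it passed the count filter through shNC only it is given without a test. The sum of 6 immune markers was at most 3.70 CPM with CD3E at 0, and that of 4 endothelial markers at most 0.282 CPM with KDR at 0. The part of these differences in the SGK1 difference was not tested. In RNA from whole cultures, fewer cells of a type and less RNA per cell cannot be told apart.

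Few genes passed the adjusted threshold between treatments. At an adjusted p under 0.05, edgeR found 0.00588% of tested genes to differ between E2 and DMSO averaged over the arms (1 gene, against 696 at an unadjusted p under 0.05), 0.0646% between E2 plus fulvestrant and E2 (11 genes, against 2489 at an unadjusted p under 0.05 and 245 by DESeq2), and 0% between E2 plus fulvestrant and DMSO (0 genes, against 1422 at an unadjusted p under 0.05 and 2 by DESeq2). The E2 effect differed between arms for 0.0294% (5 genes, against 1080). Of the 167 tested genes over all lists, edgeR found 0 in each of these 4 comparisons. At an unadjusted p under 0.05 there were 8, 39, 21 and 9 of them in that order. DESeq2 found 0 in 3 of the comparisons, and for E2 plus fulvestrant against E2 it found 1 each in the upstream, osmotic and epithelial lists and 2 in the substrate list.

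The nearest tested genes around SGK1 and SGK3 that passed the test differed from each other in direction. Among the 4 nearest tested genes on each side of SGK1, 3 of 8 passed the edgeR test in the averaged comparison of arms, against 43.1% of all genes. RPS12, a ribosomal protein gene, rose by 0.18 (adjusted p = 1.59e-05), EYA4, a transcriptional coactivator, fell by 0.46 (adjusted p = 7.1e-06) and MYB, a transcription factor with at most 1.69 CPM, fell by 1.12 (adjusted p = 0.000452). From left end to left end, these lay at -1355 kb (RPS12), -928.6 kb (EYA4) and 1012 kb (MYB) from SGK1. The neighbours that did not pass all lay nearer, some of them at about 1 CPM or less. The nearest tested protein-coding gene, TBPL1, had a difference of -0.05 (SE 0.08; adjusted p = 0.627). Of the 8 around SGK3, 2 passed, against the same 43.1%. They were the transcription factor MYBL1, which fell by 0.41 (adjusted p = 2.32e-06), and the host RNA SNHG6, which rose by 0.25 (adjusted p = 3.14e-05). Some that did not pass were near the detection limit, such as C8orf46 (0.153 CPM on average in shNC), PTTG3P (0.243 CPM) and TCF24 (0.222 CPM). C8orf44, next to SGK3 on the same strand, had a difference of -0.06 (SE 0.19; adjusted p = 0.814).

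**Figure D5:**
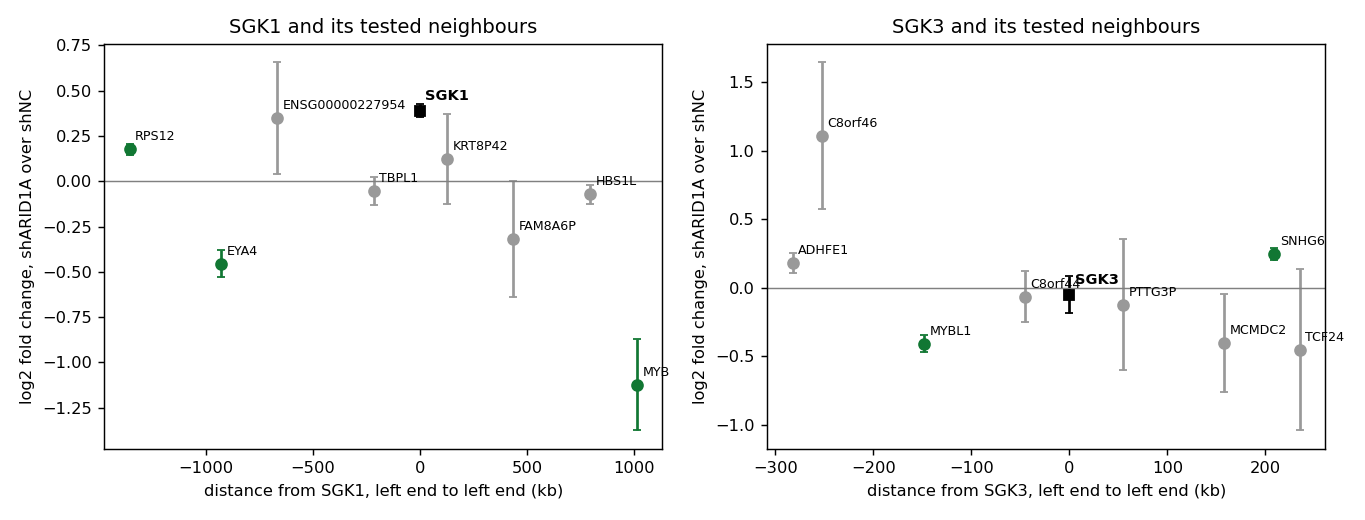
Log2 fold change of shARID1A over shNC (vertical axis, bars for the standard error of the fit) for SGK1 and SGK3 (black squares, described without a test) and their nearest tested neighbours by distance in kilobases (green where the edgeR adjusted p was under 0.05, grey otherwise). The neighbours that passed lie on both sides of 0, from MYB at -1.12 to SNHG6 at 0.25.

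The genes whose log2 levels followed SGK1 most closely over the 12 libraries, among 10338 genes averaging 5 CPM or more, were ARHGAP32 (Pearson r 0.986), ESYT2 (0.985), ESRP2 (0.985), TRABD2A (0.983), AMOTL1 (0.982) and RASA3 (0.980). All 6 were higher in shARID1A, by 0.43 (ESRP2) to 1.29 (ARHGAP32) on the log2 scale, and the r of 688 genes was over 0.9 and that of 588 genes under -0.9. The libraries share the difference between arms, which dominates this measure. After each arm's mean was subtracted, r for the same 6 genes was 0.35 (AMOTL1) to 0.68 (ESRP2), and 0 of them were among the 6 highest.

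For SGK3 the highest r belonged to ANAPC7, a subunit of the anaphase-promoting complex, at 0.91 over all libraries and 0.93 with arm means subtracted. TEFM, ARF4, SIKE1, ENSG00000233101.6 and CCNG1 followed, with CCNG1 at 0.81. Of these, 3 (ANAPC7, TEFM and ARF4) were also among the 6 highest with arm means subtracted. ANAPC7 read 64.8 ± 3.21 CPM in shNC and 65.0 ± 2.01 CPM in shARID1A (SD, n = 6 each), with a difference of 0.01 (SE 0.04; edgeR adjusted p = 0.916). These are correlations over 12 libraries that share groups and depth, and with 10338 genes compared they describe likeness of pattern and nothing more.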

How the data were processed

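Poly(A) RNA libraries were made with a TruSeq mRNA kit, per the labels' protocols. The authors deposited raw counts of reads per gene, with no normalization. Reads were processed with Trim Galore, cutadapt and FastQC and aligned with Subread 2.0.0 on hg19, per the submitters' processing notes, and counted with featureCounts 2.0.0 over exons by gene without a strand setting, per the file headers. Where genes on both strands overlap, their reads cannot be separated.

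From the counts, 1 edgeR 4.0.16 model in R 4.3.3 was fitted to all 12 libraries with a mean per group, TMM factors and filterByExpr, which left 17020 genes. Contrasts were tested with the quasi-likelihood F-test, and p-values were adjusted by Benjamini-Hochberg over all tested genes. A gene was taken to rise or fall at an adjusted p under 0.05, and SE was derived from the fold change and its F value. The script was tested on simulated data. Depth allows a floor of 3 counts per library for a gene with 0 counts.

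SGK1, SGK3 and the 12 gene lists (238 symbols, of which 212 were found in the files and 167 tested, and the rest not analysed here) were chosen with earlier results of these data known. Named were SGK2, ARID1A and a short set of regulators and substrates always, up to 5 members of each list that rose and up to 5 that fell with the smallest adjusted p, 4 tested neighbours on each side, and the 6 genes of highest r. Not all of them are described, and some are not reported here. Alternatives were DESeq2 1.42.0, RLE size factors, no filter on low counts, a replicate block and each library left out in turn. Values of SGK1 and SGK3 within treatments with a library left out, and list counts without members that passed the filter through 1 arm, were added after the data were seen. Promoter windows are from RefSeq. No sequence of SGK3 is shown.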

Additional observations from a re-analysis of the deposited data

Results flagged for a closer look

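For SGK3, the difference between arms had opposite signs in DMSO and in E2. Both shARID1A libraries lay above both shNC libraries in DMSO and below both in E2, and the log2 difference in E2 minus that in DMSO was -0.73 (SE 0.34). This difference was not tested, since SGK3 was chosen on measured values of the same comparisons, and it rests on 2 shNC DMSO libraries with 85 and 80 counts. The share of all tested genes with such an order of libraries is not given here. With 2 libraries per group the order alone says little.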

How the results depend on the processing

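The averaged differences of SGK1 and SGK3 moved by less than 1 SD between replicates under all 16 alternatives, which does not hold within single treatments. With a library left out, the averaged difference between arms was 0.37 to 0.41 for SGK1 and -0.11 to 0.01 for SGK3, and that of SGK3 in E2 plus fulvestrant against DMSO was 0.37 to 0.54. Within shNC the latter was 0.62 to 0.95, and the SGK1 difference in DMSO was 0.35 to 0.47. Plain totals are not among the 16 alternatives. On them the log2 ratio of the SGK1 arm means was 0.32, against 0.39 with TMM factors. That shift was larger than the SGK1 SD within groups of 0.05. The averaged comparison of arms called 6608 to 7197 genes with a library left out and 7399 with the replicate block. Within treatments, leaving out a library gave 2005 to 3353 calls in DMSO (lowest without the second shARID1A DMSO library), 2748 to 4651 in E2 (without the second shNC E2 library) and 2309 to 4181 in E2 plus fulvestrant (without the first shARID1A library of that group). For E2 against DMSO it gave 0 to 4, and no filter gave 8. For E2 plus fulvestrant against E2 it gave 0 to 222 (0 without the second shNC library with fulvestrant, 222 without the second shNC E2 library), DESeq2 gave 245, no filter 256 and the replicate block 40. For E2 plus fulvestrant against DMSO it gave 0 to 7, DESeq2 2 and no filter 20. For the difference of E2 effects it gave 2 to 17, DESeq2 15, no filter 41 and the replicate block 12. The cause of these shifts was not tested. Correlations between groups of the deviations of libraries with the same replicate number ran from -0.22 to 0.28 over 15 pairs of groups. No pairing common to all groups was seen, and a batch shared by part of the libraries was not tested. Of 1728 values for 108 other named genes, 1689 kept direction and side of the threshold, 28 lost the call, 11 gained it and 0 reversed, in 9 genes.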
